A study of Mus musculus with 6 samples.

Results

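The genes described are the 4 JAK kinases Jak1, Jak2, Jak3 and Tyk2, the STAT factors Stat3, Stat5a, Stat5b and Stat6, and the feedback inhibitors Socs1 and Cish. They were taken by gene symbol, which found 10 of 10, out of 41079 genes listed for D10 T cells, a cloned mouse helper T cell line labelled CD4+ and of lymph node origin. Poly(A)+ RNA was sequenced after 24 h at 26°C (cold-acclimated, 3 libraries) or after 24 h at 37°C (non-acclimated, 3 libraries), with no other difference in treatment given. The line is described as cloned, so the libraries are not animals, and the p-values measure the spread between cultures or RNA extractions. The labels name RPMI medium with serum and antibiotics for all cells, while the paper's methods name DMEM and add IL-2, a cytokine that itself acts through JAK kinases, so which medium these libraries had is not settled.

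JAK kinases are bound to the inner side of cytokine receptors and phosphorylate them once a ligand draws the chains together. STAT factors dock on the phosphorylated receptor, are phosphorylated in turn, pair up and enter the nucleus to switch on target genes. Among these targets are genes for SOCS proteins and Cish, which return to the receptor and damp the signal. In helper T cells, Jak1 and Jak3 serve the receptors of IL-2 and IL-4, Stat5a and Stat5b carry the IL-2 signal, Stat6 carries the IL-4 signal, and Tyk2 serves receptors of interferons and of the IL-10 and IL-12 families.

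Levels are given as TPM, a measure of transcript abundance that divides reads by gene length and scales each library to the same total. Fold changes are those of log2(TPM + 1) at 26°C over 37°C in limma, fitted over the 12227 genes whose TPM averaged 1 or more, and all 10 genes passed this filter. Genes past an adjusted p of 0.05 (Benjamini-Hochberg, over all tested genes) and past a log2 fold change of 1 in either direction are called upregulated or downregulated. The libraries held 16899628 to 31290854 reads as recovered from the TPM steps, and each of the 10 genes rested on 524 to 19626 of them per library, the smallest whole numbers that the steps allow. On the deposited scale the tested genes had a median log2 fold change of -0.34, which moved to 0.02 when libraries were rescaled by the median of ratios, the scaling named in the paper's methods. For the 10 genes and the named pathway genes, that second scale is therefore also given where it alters a call or a direction. Genes named only because they overlap one of the 10 are given on the deposited scale alone. Against the label CD4+, Cd4 stood at 1.09, 0.0351 and 310 TPM in replicates 1, 2 and 3 at 37°C and at 1.30, 0.352 and 328 TPM at 26°C, so that only the 2 libraries of replicate 3 held more than a trace of it. This goes against 1 uniform cell population, and whether replicate 3 came from another stock of the line is not given in the sources used here. Cd3e, a chain of the T cell receptor complex, was at 476 to 874 TPM in all 6 libraries, and 11 of 12 T cell markers averaged 1 TPM or more, the exception being Cd5. The T cell markers summed to 2989 to 4321 TPM at 37°C and 3818 to 4584 TPM at 26°C. Of the B cell markers, 8 of 9 were under 1 TPM in every library, Cd79a and Ms4a1 among them, and the list summed to 2.1 to 3.62 TPM at 37°C and 1.02 to 2.06 TPM at 26°C. Of the macrophage and monocyte markers, 7 of 9 were under 1 TPM in every library, Csf1r and Adgre1 among them, with sums of 2.46 to 15.9 TPM at 37°C and 2.69 to 21.2 TPM at 26°C. Of 7 erythroid markers, 3 were under 1 TPM in every library, Hbb-bs and Hbb-bt among them, and the list summed to 142 to 520 TPM at 37°C and 79.8 to 492 TPM at 26°C. The part of these differences between libraries in the results was not tested.

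A few sequences bear on the genes that differed most. The first is a stretch of the Cish promoter, shown because Cish was the gene called upregulated. It lies at chr9:107296654-107296681 on the plus strand of GRCm38.p6 in RefSeq, an older build than the GRCm39 of the deposited positions. The stretch spans the annotated start of the gene, and most of it lies past that start. Capitals mark the letters TTCNNNGAA, the core bound by STAT dimers, which reads the same on both strands.
Cish: cagttTTCCTGGAAagTTCTTGGAAatc
The matches, TTCCTGGAA and TTCTTGGAA, do not overlap and cover bases 1 to 9 and 12 to 20, counted from the annotated start as base 1. At least 1 match stood in 8.3% of 32851 RefSeq promoters of 300 bases, and 2 or more stood in 0.457% of them. The 10 genes had 12 promoters in the table, and Cish was the 1 of the 10 with a match. A match is a description of letters, and its absence in these windows says nothing of binding elsewhere.

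The other sequences are from Stat5a and Stat5b, shown because Stat5a was higher and Stat5b lower at 26°C and because reads from such close genes can be hard to assign. Their coding sequences (GENCODE M39, transcripts Stat5a-201 and Stat5b-201) were identical at 2125 of 2343 aligned bases, or 90.7%. The longest run without a difference was 324 bases, from coding base 571 to 894. Coding bases 875 to 954 cover the end of that run and the first difference after it, in capitals.
Stat5a: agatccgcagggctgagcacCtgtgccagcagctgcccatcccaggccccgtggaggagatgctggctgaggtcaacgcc
Stat5b: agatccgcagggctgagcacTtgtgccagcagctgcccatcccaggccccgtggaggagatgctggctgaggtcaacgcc
The last 60 coding bases lie outside that run, at the ends where the genes can be told apart.
Stat5a: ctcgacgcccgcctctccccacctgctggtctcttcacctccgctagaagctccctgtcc
Stat5b: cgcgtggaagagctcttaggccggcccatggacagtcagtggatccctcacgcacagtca
Of all windows of 150 bases, the read length of the study, 4.59% of those in the Stat5a transcript and 3.54% of those in the Stat5b transcript also occur in the other gene.

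Cold acclimation was accompanied by a fall of Tyk2, Stat5b and Stat6 to 0.369, 0.333 and 0.355 times their 37°C means and by a rise of Cish to 2.44 times its 37°C mean. Of the 10 genes, 1 was called upregulated and 3 downregulated, where 2.63% of all tested genes were called upregulated and 16.0% downregulated. Between the conditions the 3 libraries did not overlap for 2 genes that were higher at 26°C (Stat5a and Cish) and 3 that were lower, where 9.69% of all tested genes were higher without overlap and 31.4% lower. The median log2 fold change of the 10 genes was -0.25, beside -0.34 for all tested genes. In these bulk libraries, fewer cells expressing a gene and less RNA per cell cannot be told apart.

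**Figure D1:**
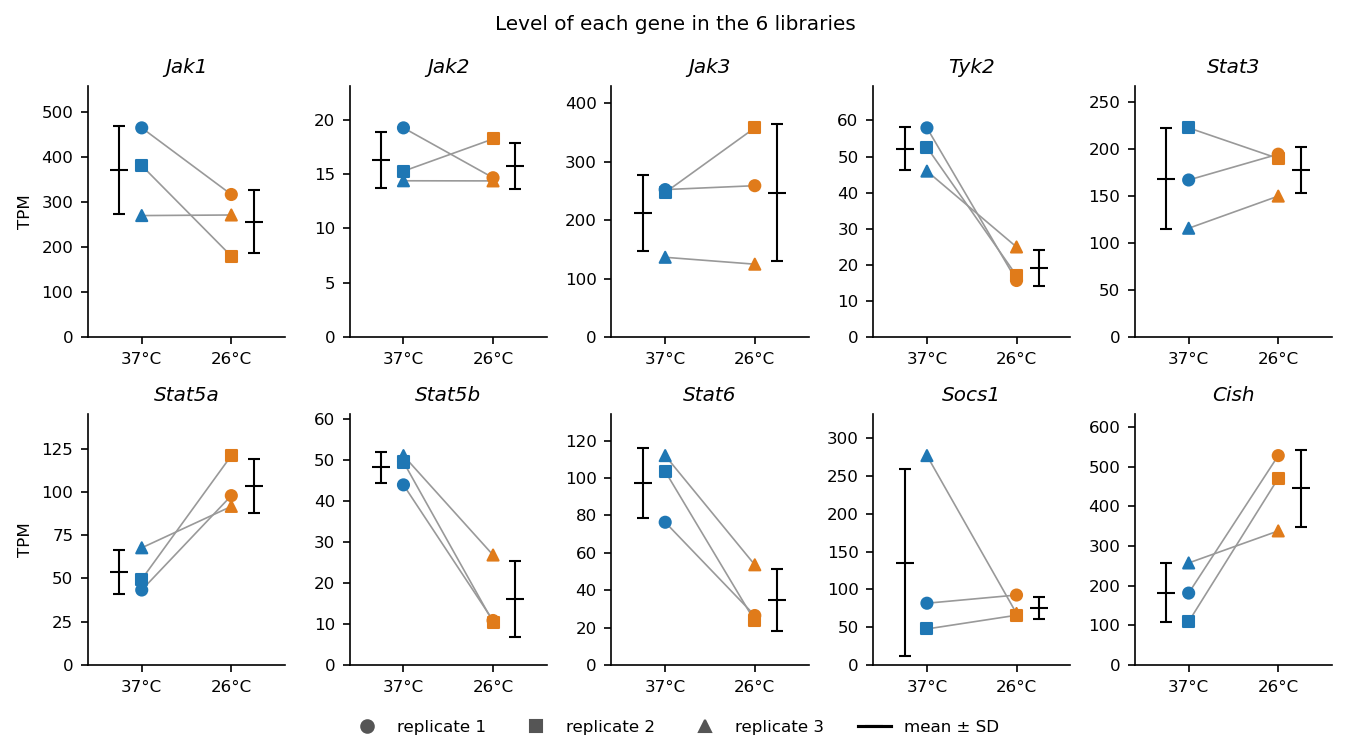
TPM of each of the 10 genes in the 6 libraries, 37°C in blue and 26°C in orange, with replicate numbers as symbols joined by lines and mean ± SD beside them (n = 3 per condition). The conditions are separated for Tyk2, Stat5a, Stat5b, Stat6 and Cish, and replicate 3 at 37°C stands apart for Socs1 at 277 TPM.

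Among the kinases, Tyk2 (chr9:21015364-21042689, minus strand, GRCm39) was called downregulated. Its TPM was 57.9, 52.5 and 45.9 in non-acclimated replicates 1, 2 and 3 and 15.7, 17.0 and 24.96 in cold-acclimated replicates 1, 2 and 3. Every cold-acclimated library lay under every non-acclimated one, and replicate 3 showed the smallest difference. The mean went from 52.1 ± 6.0 to 19.2 ± 5.01 TPM (SD, n = 3), a log2 fold change of -1.41 (SE 0.26, limma adjusted p = 0.013), and -1.03 with median of ratios scaling (limma adjusted p = 0.028). By replicate number, the log2 difference was -1.82, -1.57 and -0.85.

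Jak1 (chr4:101009171-101122493, minus strand), the kinase partner shared by most of these receptors, was the most abundant of the 10 at 37°C. Its TPM was 465, 381 and 270 at 37°C and 317, 180 and 271 at 26°C in replicates 1, 2 and 3. The conditions overlapped, since replicate 3 was at nearly the same level in both. The log2 fold change was -0.54 (95% interval -1.26 to 0.18, limma adjusted p = 0.244), so a fall by more than the size threshold was within the interval.

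Jak3 (chr8:72129027-72143221, plus strand), which works with the common gamma chain Il2rg, had 253, 248 and 137 TPM at 37°C and 259, 358 and 125 TPM at 26°C. Replicate 3 was the lowest library of both conditions, and the ranges overlapped. The log2 fold change was 0.15 (95% interval -0.86 to 1.15, limma adjusted p = 0.841), and it was -0.14 without non-acclimated replicate 3 and -0.18 without cold-acclimated replicate 2. Insl3, on the same strand, overlaps Jak3 over 1326 bases and was at 39.6 ± 10.01 TPM at 37°C and 17.0 ± 10.6 TPM at 26°C (limma log2 fold change -1.30, adjusted p = 0.064). Reads in the shared bases could have counted for either gene or for neither.

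Jak2 (chr19:29229006-29290495, plus strand), the kinase of IL-3 and interferon gamma receptors among others, had the lowest mean TPM of the 10 in both conditions, though at 26°C only just, at 15.8 beside 16.1 for Stat5b, whose range overlapped and which was lower than Jak2 in replicates 1 and 2. It was at 19.2, 15.3 and 14.4 TPM at 37°C and 14.7, 18.2 and 14.4 TPM at 26°C. The log2 fold change was -0.04 (95% interval -0.61 to 0.52, limma adjusted p = 0.920) and turned to 0.33 with median of ratios scaling, so no direction can be given for it. Tyk2, which at 37°C stood above Jak2 without overlap, had a range of 15.7 to 24.96 TPM at 26°C that overlapped Jak2's 14.4 to 18.2 TPM.

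**Figure D2:**
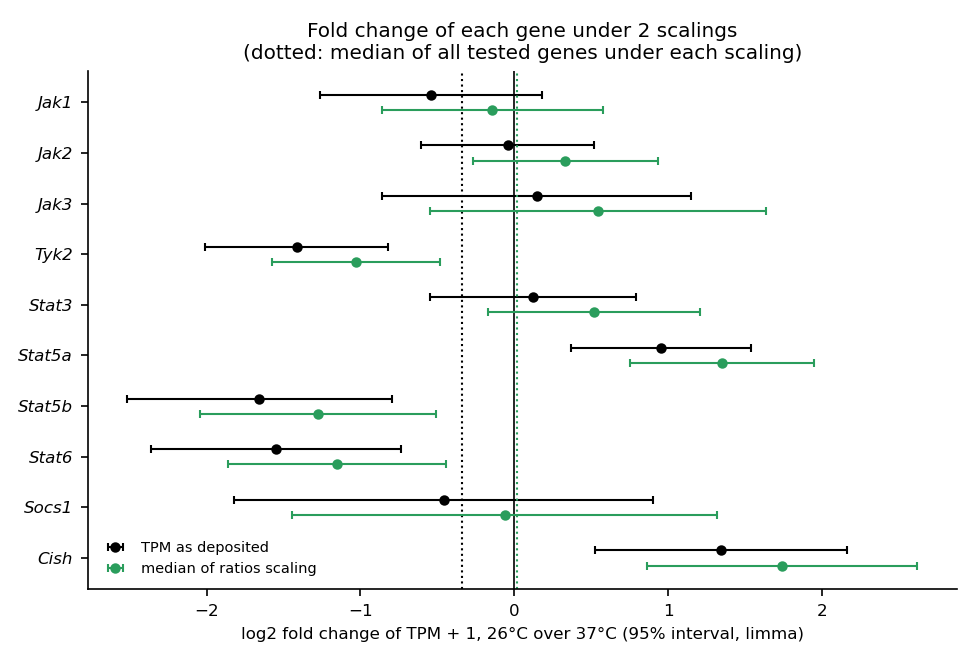
Log2 fold change of TPM + 1 at 26°C over 37°C for each of the 10 genes with its 95% interval from limma (n = 3 per condition), for TPM as deposited (black) and with median of ratios scaling (green). Tyk2, Stat5b and Stat6 lie left of 0 and Stat5a and Cish right of 0 with their whole intervals on both scales, and the dotted lines give the medians of all tested genes, -0.34 and 0.02.

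Stat5b, Stat5a and Stat3 are neighbours within 158891 bases of chromosome 11, with 8769 bases between Stat5b and Stat5a and 1636 bases between Stat5a and Stat3. The data differed from one to the next. Stat5b (chr11:100671557-100741407, minus strand) was called downregulated, Stat5a was higher at 26°C with a fold change just under the size threshold, and Stat3 was not called.

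Stat5b was at 44.0, 49.6 and 51.1 TPM in non-acclimated replicates 1, 2 and 3 and at 10.9, 10.5 and 26.9 TPM in cold-acclimated replicates 1, 2 and 3. The non-acclimated libraries lay close together, and cold-acclimated replicate 3 lay between them and the other two. The mean went from 48.2 ± 3.76 to 16.1 ± 9.35 TPM (SD, n = 3). The log2 fold change was -1.66 (SE 0.37, limma adjusted p = 0.022), and -1.27 with median of ratios scaling (limma adjusted p = 0.038).

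Stat5a (chr11:100750177-100775995, plus strand) was at 43.3, 49.5 and 67.6 TPM at 37°C and at 97.8, 121 and 91.6 TPM at 26°C. Every cold-acclimated library was above every non-acclimated one, and replicate 3 again showed the smallest difference, 0.43 on the log2 scale beside 1.16 and 1.27. The mean went from 53.5 ± 12.7 to 103 ± 15.5 TPM (SD, n = 3), a log2 fold change of 0.95 (SE 0.25, limma adjusted p = 0.036). It passed the threshold on p, as did 3.3% of all tested genes upward and 17.4% downward, and missed the one on size. With median of ratios scaling it passed both, at 1.35 (limma adjusted p = 0.019), so that 2 of the 10 genes were called upregulated and 3 downregulated on that scale, beside 6.56% and 8.79% of all tested genes.

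The pair was at near equal levels at 37°C and far from equal at 26°C. Within a library, the ratio of Stat5a to Stat5b TPM does not depend on how libraries are scaled. It was 0.984, 0.998 and 1.32 in non-acclimated replicates 1, 2 and 3 and 9.01, 11.5 and 3.41 in cold-acclimated replicates 1, 2 and 3. Stat5a thus made up 49.6% to 56.9% of the summed TPM of the pair at 37°C and 77.3% to 92.0% at 26°C. The log2 ratio was 0.13 ± 0.24 at 37°C and 2.82 ± 0.93 at 26°C (SD, n = 3), a difference of 2.70 (two-sided exact permutation test, p = 0.1, the smallest p that 3 against 3 libraries can give). The ratio was chosen after the values of both genes were seen. Stat5a was already higher and Stat5b already lower at 26°C without overlap, so the ratio had to separate the conditions. Its p was thus fixed in advance and adds nothing to the values of the 2 genes. The summed TPM of the pair was 102 ± 15.9 at 37°C and 119 ± 11.4 at 26°C, which overlapped (two-sided exact permutation test, p = 0.3). Unlike the ratio, this sum depends on how libraries are scaled, and it was taken on the deposited scale alone. The assignment of reads from the identical run shown above to either gene is not given in the sources used here, and its part in the ratio was not tested.

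**Figure D3:**
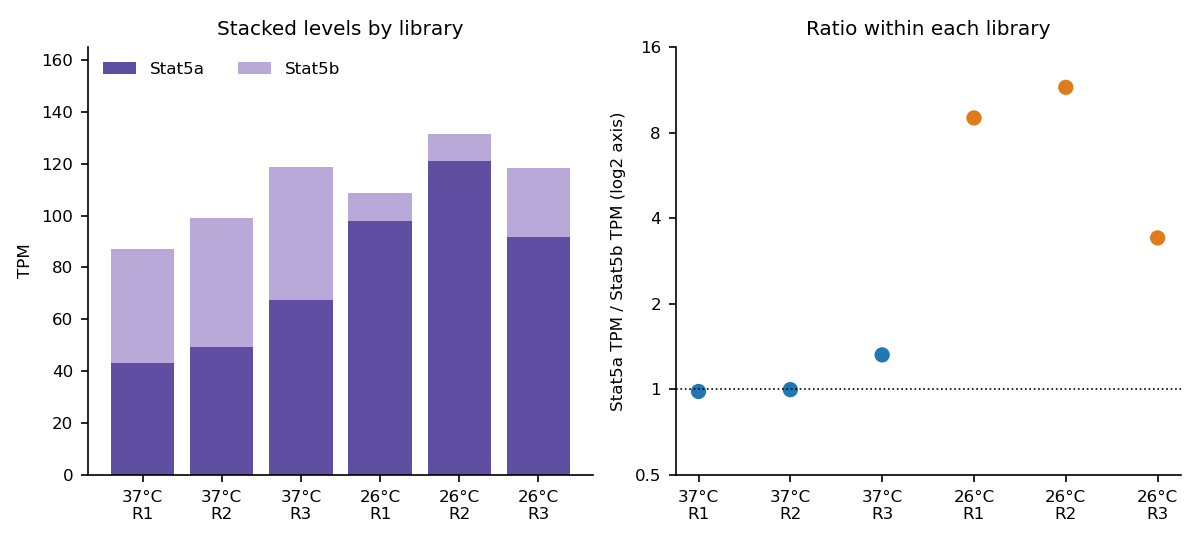
Left, TPM of Stat5a and Stat5b stacked for each library (R1 to R3, replicates 1 to 3). Right, the ratio of Stat5a to Stat5b TPM in the same libraries on a log2 axis, with a dotted line at equal levels: from 0.984 to 1.32 at 37°C and from 3.41 to 11.5 at 26°C.

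Stat3 (chr11:100777632-100830447, minus strand), which serves IL-6, IL-10 and IL-21 receptors, was at 167, 223 and 116 TPM at 37°C and 195, 190 and 150 TPM at 26°C. All cold-acclimated libraries fell inside the non-acclimated range. The log2 fold change was 0.12 (95% interval -0.55 to 0.79, limma adjusted p = 0.801), and -0.12 without non-acclimated replicate 3.

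Stat6 (chr10:127478855-127496856, plus strand) was called downregulated. It was at 76.3, 104 and 112 TPM in non-acclimated replicates 1, 2 and 3 and at 26.4, 23.5 and 53.6 TPM in cold-acclimated replicates 1, 2 and 3. The groups did not overlap, and cold-acclimated replicate 3 was the nearest to the non-acclimated range. The mean went from 97.3 ± 18.6 to 34.5 ± 16.6 TPM (SD, n = 3), a log2 fold change of -1.55 (SE 0.35, limma adjusted p = 0.023), and -1.15 with median of ratios scaling (limma adjusted p = 0.040). Gm30989, a noncoding gene annotated antisense within Stat6 over 4773 bases, was called downregulated with it (34.4 ± 6.27 to 12.6 ± 6.33 TPM, log2 fold change -1.45, limma adjusted p = 0.028). The libraries were made with a directional kit, but the strand setting of the counting is not given in the sources used here, so reads of the pair may not have been told apart. Nab2 meets Stat6 over 70 bases on the opposite strand and was also called downregulated, from 66.5 ± 15.8 to 28.1 ± 7.92 TPM (log2 fold change -1.23, limma adjusted p = 0.029). Both calls, of Gm30989 and Nab2, were made on the deposited scale, and whether they hold with median of ratios scaling is not given here.

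The feedback inhibitors differed from each other. Cish (chr9:107173858-107179983, plus strand), a SOCS family member induced by STAT5 and known to damp IL-2 and T cell receptor signals, was called upregulated. It was at 181, 109 and 257 TPM in non-acclimated replicates 1, 2 and 3 and at 528, 471 and 338 TPM in cold-acclimated replicates 1, 2 and 3. The groups did not overlap, and replicate 3 was both the highest at 37°C and the lowest at 26°C. The mean went from 182 ± 73.9 to 445 ± 97.4 TPM (SD, n = 3), a log2 fold change of 1.34 (SE 0.35, limma adjusted p = 0.035), and 1.74 with median of ratios scaling (limma adjusted p = 0.025). By replicate number the log2 difference was 1.54, 2.1 and 0.39. At 26°C Cish was the most abundant of the 10, and its range did not overlap that of Jak1, the next at 180 to 317 TPM.

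Socs1 (chr16:10601672-10603400, minus strand), which inhibits JAK kinases directly, was at 81.6, 47.6 and 277 TPM at 37°C and 92.5, 65.8 and 68.1 TPM at 26°C. A single library, non-acclimated replicate 3, was far above the other five, which lay between 47.6 and 92.5 TPM. The log2 fold change was -0.46 (95% interval -1.82 to 0.90, limma adjusted p = 0.612) and turned to 0.25 without that library, so Socs1 has no direction beyond its spread.

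In replicates 1 and 2 alone, the libraries with hardly any Cd4 and a subset chosen after the values were seen, the 4 called genes were called again and Stat5a was called too, at a log2 fold change of 1.21 (limma adjusted p = 0.012), which made 2 upregulated and 3 downregulated, beside 5.34% and 25.3% of all tested genes. Cish had 1.82 there, Stat5b -2.03, Stat6 -1.79 and Tyk2 -1.69. The log2 difference of replicate 3 was the smallest for each of these 5 genes. None of the 4 calls survived the removal of any one library of replicate 1 or 2 (limma adjusted p from 0.055 to 0.125), with log2 fold changes of the same sign that stayed over 1 in size. Without cold-acclimated replicate 3 all 4 were kept, and without non-acclimated replicate 3 Stat6 alone was lost (log2 fold change -1.44, limma adjusted p = 0.053). The order of the 10 by mean TPM had Jak1, Jak3, Cish and Stat3 at the top at 37°C and Cish, Jak1, Jak3 and Stat3 at 26°C. At 37°C Jak1, Stat6 and Stat5b were separated from the next lower gene without overlap, and at 26°C Cish, Stat3 and Socs1 were. All other neighbours in the order overlapped.

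The rest of the pathway was read from lists of 90 genes in all, of which 72 were tested. Of these 72, 1 was called upregulated and 7 downregulated, and 64 were not called, beside 2.63% and 16.0% of all tested genes. Their median log2 fold change was -0.24. With the replicate number as a block in the fit, 5 were called upregulated and 17 downregulated, beside 3.75% and 21.9% of all tested genes. With median of ratios scaling the split was 4 and 5, beside 6.56% and 8.79% of all tested genes.

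**Figure D4:**
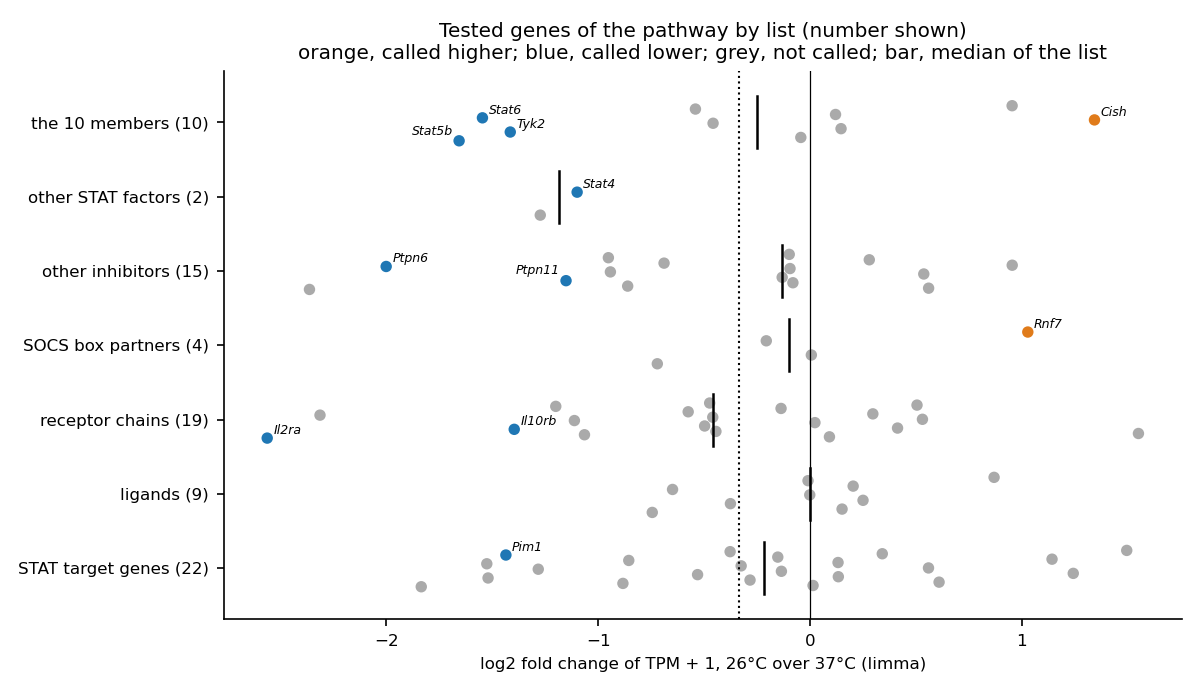
Log2 fold change of TPM + 1 at 26°C over 37°C (limma) for tested genes of each list, 1 point per gene, with called genes coloured and named, a bar at the median of the points shown and a dotted line at the median of all tested genes, -0.34. The lists hold 1 called gene above 0 beside Cish, which is Rnf7.

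Among the other STAT factors, Stat4, which carries the IL-12 signal, had a log2 fold change of -1.10 (limma adjusted p = 0.049), and -0.71 with median of ratios scaling, where it was not called. Stat2, a factor of interferon signals, had -1.27 and was not called (limma adjusted p = 0.152), but was with the replicate block (adjusted p = 0.025). With both the block and median of ratios scaling it was again not called (-0.88, limma adjusted p = 0.060). It was called without non-acclimated replicate 3 (-1.98, limma adjusted p = 0.015) and in replicates 1 and 2 only (-1.75, limma adjusted p = 0.0043). It was at 137, 157 and 32.6 TPM at 37°C and 42.4, 43.5 and 25.8 TPM at 26°C, so replicate 3 was low in both conditions.

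Of the other inhibitors, 15 of 17 were tested, and limma called 2 downregulated and 0 upregulated, beside 16.0% and 2.63% of all tested genes. On the recovered reads, voom called 1 in each direction, beside 1122 downregulated and 767 upregulated of all 12227 tested genes. At an unadjusted p under 0.05, 2 were higher and 5 lower, beside 7.75% and 30.0% of all tested genes. Ptpn6 (SHP-1), a phosphatase that opposes JAK signals, went from 115 ± 10.6 to 32.3 ± 20.8 TPM (SD, n = 3; log2 fold change -2.00, limma adjusted p = 0.023). Ptpn11 (SHP-2), a related phosphatase with activating as well as inhibiting roles, had -1.15 (limma adjusted p = 0.021), and -0.76 with median of ratios scaling, under the size threshold. Usp18, which restrains interferon receptors, was at 466, 857 and 35.5 TPM at 37°C and 58.5, 106 and 15.9 TPM at 26°C. It was lower at 26°C in all 3 replicate pairs but was not called (log2 fold change -2.36, limma adjusted p = 0.186). It was called with the replicate block (limma adjusted p = 0.0083, and 0.015 with median of ratios scaling added), without non-acclimated replicate 3 (log2 fold change -3.73, limma adjusted p = 0.025) and in replicates 1 and 2 only (-2.99, 0.0056). Ptprc (CD45), a phosphatase of the T cell surface, was at 500 ± 158 and 453 ± 39.2 TPM (log2 fold change -0.10, turning to 0.30 with median of ratios scaling). Among the 4 partners through which SOCS proteins recruit a ubiquitin ligase, Rnf7, the RING protein that pairs with Cul5, was called upregulated, from 134 ± 19.9 to 272 ± 12.4 TPM (SD, n = 3; log2 fold change 1.03, limma adjusted p = 0.019). Elob, the adaptor that binds the SOCS box, had a log2 fold change of 0.01 (limma adjusted p = 0.989).

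Of the receptor chains, 19 of 28 were tested, and limma called 2 downregulated and 0 upregulated, beside 16.0% and 2.63% of all tested genes. The numbers with voom were the same, beside 1122 and 767 of all 12227 tested genes. At an unadjusted p under 0.05, 0 were higher and 4 lower, beside 7.75% and 30.0% of all tested genes. With the replicate block, 6 were called downregulated and 1 upregulated, beside 21.9% and 3.75% of all tested genes. Il2ra (CD25), the chain that gives the IL-2 receptor its high affinity and is itself a STAT5 target, was at 1687 ± 333 TPM at 37°C and 286 ± 59.9 TPM at 26°C (SD, n = 3), with no overlap. Its log2 fold change was -2.56 (SE 0.27, limma adjusted p = 0.0067). Il10rb, which pairs with Tyk2, went from 21.6 ± 2.67 to 7.58 ± 0.77 TPM (log2 fold change -1.40, limma adjusted p = 0.011). Il2rg, the common gamma chain that holds Jak3, was at 631 ± 183 and 631 ± 116 TPM (log2 fold change 0.02, limma adjusted p = 0.964). The median of the 19 was -0.46.

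Of the ligands, 9 of 16 were tested and limma called 0 in either direction, with 0 at an unadjusted p under 0.05 and 0 called by voom. Over all tested genes, limma called 2.63% upregulated and 16.0% downregulated, with 7.75% and 30.0% at that unadjusted p. The median log2 fold change of the ligands was -0.00. Il10 ranged widely, with 365, 195 and 279 TPM at 37°C and 1418, 473 and 181 TPM at 26°C (log2 fold change 0.87, limma adjusted p = 0.393). Osm was at 190 ± 110 and 192 ± 34.3 TPM (log2 fold change 0.15, limma adjusted p = 0.815).

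All 22 STAT target genes were tested, and limma called 1 downregulated and 0 upregulated, beside 16.0% and 2.63% of all tested genes. With voom, 1 was called downregulated and 3 upregulated, beside 1122 and 767 of all 12227 tested genes. At an unadjusted p under 0.05, 3 were higher and 5 lower, beside 7.75% and 30.0% of all tested genes. With the replicate block, 5 were called downregulated and 3 upregulated, beside 21.9% and 3.75% of all tested genes. Pim1, a kinase gene induced by STAT5 and by STAT3, was at 189, 209 and 212 TPM at 37°C and 62.3, 84.6 and 78.3 TPM at 26°C. The groups were far apart, and the log2 fold change was -1.44 (SE 0.22, limma adjusted p = 0.0087). Cish, listed apart as 1 of the 10, thus rose while Il2ra and Pim1 fell. Gata3, the master factor of the Th2 type, was at 630 ± 84.6 and 592 ± 186 TPM (log2 fold change -0.14, turning to 0.26 with median of ratios scaling). Myc had a log2 fold change of 0.56 (limma adjusted p = 0.482), with 168 to 621 TPM at 37°C and 369 to 873 TPM at 26°C. The median of the 22 was -0.22. Il2ra and Pim1 were called under every alternative run, including each library left out. Il10rb was lost without non-acclimated replicate 1 or 2 (limma adjusted p = 0.053 and 0.060), and with quantile normalization (-0.83, limma adjusted p = 0.058). Ptpn11 and Rnf7 were lost without any one library of replicates 1 and 2 (limma adjusted p from 0.059 to 0.091 and 0.063 to 0.072). Ptpn11 was also under the size threshold with quantile normalization (-0.86) and voom (-0.77). Ptpn6 and Stat4 were lost without any one library but cold-acclimated replicate 3 (limma adjusted p from 0.052 to 0.080 and 0.064 to 0.161). Ptpn6 was also lost with no filter (limma adjusted p = 0.059), and Stat4 with voom (-0.70, limma adjusted p = 0.142).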

How the data were processed

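Per the labels and the paper's methods, poly(A)+ RNA of 6 libraries was sequenced as paired ends, and the submitters' processing notes name FastQC 0.11.7, Trimmomatic 0.38, HISAT2 2.1.0, featureCounts 1.6.3 and the build GRCm39. The authors deposited TPM, that is read counts divided by gene length and scaled so that each library sums to 1000000. The sources used here give neither the annotation release nor the strand setting. From the TPM steps, reads were recovered for 100% of the 21195 genes above 0 (whole within 1e-06 reads), up to a factor shared by all 6 libraries, so reads are minima.

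log2(TPM + 1) of the 12227 genes whose TPM averaged 1 or more was fitted with limma 3.58.1 (mean-variance trend, no replicate term) in R 4.3.3, with p adjusted over all of them by Benjamini-Hochberg. Exact permutation tests used Python 3.11.15. The fits were also run on simulated reads without a replicate effect, so that run does not bear on the pairing of replicates described below. Alternatives were a pseudocount of 0.1, no filter, median of ratios scaling, quantile normalization, a replicate block (alone and with median of ratios scaling), limma's voom on the recovered reads, and leaving out each library. Libraries of the same replicate number deviated from their condition means together (correlations across genes of 0.48, 0.50 and 0.51, beside -0.41 to 0.02 for different numbers), which was taken as pairing. The main fit and the exact permutation tests did not use this pairing. With the replicate block, the SE was 0.25 for Tyk2, 0.24 for Stat5a, 0.29 for Stat5b, 0.25 for Stat6 and 0.33 for Cish. The 95% interval of Jak3 was then -0.35 to 0.64. Old and new batches of extraction appear in the labels as biological replicates, without naming the libraries of either.

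The members and lists were chosen with earlier results of these data known. Beside the members, the genes named are, per list, the 3 called genes with the smallest p in each direction and the 2 tested genes with the highest mean TPM, the 3 genes most like Cish and Socs1, and Cd3e and Cd4. Insl3, Gm30989 and Nab2 are named for their overlap with members. Sequences came from RefSeq promoters (GRCm38.p6) and GENCODE M39 transcripts, matched by symbol. Some genes of the lists are not reported here one by one.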

Additional observations from a re-analysis of the deposited data

How the results depend on the processing

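Over all tested genes, 321 were called upregulated and 1954 downregulated. The counts were 184 and 1121 with no filter on low values (21195 genes tested), 802 and 1075 with median of ratios scaling, 731 and 765 with quantile normalization, 767 and 1122 with voom on the recovered reads, 1086 and 1544 with the replicate block and median of ratios scaling, and 653 and 3088 in replicates 1 and 2 only, an alternative chosen after seeing the data. Leaving out 1 library gave 59 to 459 upregulated and 345 to 2725 downregulated. Of the 10 genes, 0 were called upregulated and 1 downregulated with no filter, and 2 were called upregulated with median of ratios scaling, alone or with the block, with voom, and in replicates 1 and 2 only. Leaving out 1 library gave 0 to 2 upregulated and 0 to 3 downregulated. Stat5a then passed both thresholds at 1.35 (median of ratios, alone or with the block, and voom), 1.16 (quantile) and 1.21 (replicates 1 and 2 only). With no filter, Stat5b (-1.66, limma adjusted p = 0.054), Stat6 (-1.55, 0.053) and Cish (1.34, 0.077) were lost, and Cish was lost with quantile normalization (1.32, limma adjusted p = 0.056). Of the 72 other pathway genes, 4 were called upregulated with median of ratios scaling, 4 in each direction with quantile normalization, 5 and 17 with the replicate block, 6 upregulated with block and median of ratios scaling, 5 with voom, and 7 and 18 in replicates 1 and 2 only. Leaving out 1 library gave 0 to 4 upregulated and 2 to 13 downregulated. Their median minus that of all genes was 0.09, and -0.14 with no filter, -0.10 with quantile normalization and -0.01 to 0.23 without 1 library. The replicate block, in which the numbers pair the libraries, changed the call of Stat2 and Usp18 beside these counts, and of no other of the 10 genes or the genes named from the lists. Where a call was lost under another setting, the cause was not tested.

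Directions that turned were those of genes not called. Jak2 was at 0.33 with median of ratios scaling, alone or with the block, 0.50 with quantile normalization and 0.36 with voom. In replicates 1 and 2 only, Stat3 was at -0.0047 and Socs1 at 0.32. The ranges without 1 library were -0.75 to -0.31 for Jak1, -0.15 to 0.075 for Jak2, -0.18 to 0.57 for Jak3, -1.61 to -1.29 for Tyk2, -0.12 to 0.34 for Stat3, 0.82 to 1.13 for Stat5a, -2.07 to -1.44 for Stat5b, -1.90 to -1.33 for Stat6, -1.0 to 0.25 for Socs1 and 1.02 to 1.63 for Cish. Beside the 10 genes, median of ratios scaling (alone or with the block) and voom turned Cd3e to 0.11, Ptprc to 0.30 and Gata3 to 0.26 or, with voom, 0.27. Quantile normalization turned Elob to -0.094 and Il2rg to -0.085, and replicates 1 and 2 only turned Elob to -0.092 and Gata3 to 0.069. Without 1 library, Cd4 ranged from -2.31 to 2.78, Elob from -0.13 to 0.21, Gata3 from -0.33 to 0.14, Il2rg from -0.15 to 0.24, Osm from -0.12 to 0.59 and Ptprc from -0.32 to 0.14. Depth was at least 524 recovered reads for each of the 10 genes in every library.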

Other observations

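Genes whose log2(TPM + 1) was most like that of Cish over the 6 libraries were Gm22581 (Pearson r = 0.998), C4a (0.991) and Plcxd1 (0.990). All 3 were low: Plcxd1 was at 2.65 to 5.51 TPM at 37°C and 6.45 to 11.4 TPM at 26°C, C4a, a complement gene, reached 1.36 and 2.89 TPM, and Gm22581 was listed at 0 in non-acclimated replicate 2. For Socs1 they were Gm5637 (0.984), Fgd1 (0.980) and Nbeal2 (0.979), each highest in non-acclimated replicate 3, where Nbeal2 was at 37.3 TPM beside 19.4 to 23.6 TPM in the other libraries. These coefficients are the highest of 12227 genes over 6 libraries that fall into 2 conditions, so they describe the likeness and are no test.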
